A study of Sus scrofa with 6 samples.

Results

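A pair of pig induced pluripotent stem (iPS) cell lines, iPF4-2 and iPSCs-w, were compared with each other by microarray. They were taken as the samples that the labels describe as positive for SSEA3 and SSEA4 without SSEA1, which were 2 of the 6 samples of the series. SSEA1, SSEA3 and SSEA4 are glycan epitopes on the cell surface that serve as markers of pluripotent cells. The other samples were an embryo fibroblast culture (PEF), an amniotic fluid stem cell culture (PAFSC), and the iPS lines PS24 (labelled for SSEA1, SSEA3 and SSEA4) and 30AC5 (labelled for SSEA1). The culture medium of all cells was DMEM with 15% FBS, and mitotically inactive mouse embryo fibroblasts served as feeder layers for the iPS lines. Strain, sex, donor cell, reprogramming factors and passage number of either line are not given in the labels.

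Reprogramming turns a differentiated cell such as a fibroblast into a pluripotent one. The fibroblast programme of collagens, matrix proteoglycans and contractile proteins is shut down, cells join through E-cadherin and other epithelial adhesion proteins, and the endogenous network around OCT4 is switched on. Lines made in different ways can stop at different points along this path and can carry RNA of partly differentiated cells, so iPS lines with the same surface markers may still differ in many genes.

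Each line was measured on 1 Affymetrix Pig Genome Array. The pair therefore has no replicate cultures, no test was made, and every difference compares these 2 RNA samples. Values are on a log2 scale whose zero differs from one probe set (the short oligonucleotides that together read one transcript) to the next, so arrays can be compared gene by gene, while levels of different genes cannot. A gene read by several probe sets is given as their median, and its difference as the median of the probe sets' differences, always iPF4-2 minus iPSCs-w. The SD of the difference between probe sets of the same gene was 0.49 log2 units over the 2261 genes with several of them. It measures how far probe sets of a gene disagree on this pair of arrays. It holds no spread between cultures and no error shared by a whole array, and it includes real differences between the transcripts that the probe sets read. A gene is counted as apart at 2 log2 units (4-fold), and its probe sets as agreeing where at least 2 exist and all differ by at least 1 unit in 1 direction.

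The arrays differed in some of their controls. The BioB hybridisation control averaged -2.92 over 9 probe sets in iPSCs-w, against 0.32 in iPF4-2 and -0.17 to 2.05 on the other arrays. BioC, BioD and Cre differed less, from -0.44 to -0.12 in iPSCs-w and from 0.06 to 0.37 in iPF4-2. The 5' minus 3' value of actin, which moves with RNA integrity, was 0.04 in iPF4-2 and 0.45 in iPSCs-w, and that of gapdh was -0.06 and -0.21. On the PS24 array the actin and gapdh values were -2.03 and -1.70, against 0.64 and 0.06 in 30AC5. Among the polyA controls the 5' minus 3' value of dap was -3.43 in iPF4-2 and -1.35 in iPSCs-w, and that of thr -1.43 and 0.51. For lys it was -0.54 and 0.34, and for phe 0.80 and 1.30. The part of these control values in the results was not tested. The PAFSC array had an SD of 2.01 over its probe sets, against 0.61 in iPF4-2 and 0.73 in iPSCs-w, and its values are given below only beside single genes.

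Most of the array read alike in both lines. Of 23935 probe sets, 89.7% lay within 1 log2 unit of each other, 344 (1.44%) were at least 2 units higher in iPF4-2 and 222 (0.928%) at least 2 units lower. At 1 unit the shares were 4.9% higher and 5.35% lower, 10.3% in all. The differences ran from -5.23 to 8.57, with an SD of 0.74. The SSEA1-labelled lines PS24 and 30AC5 were about as far apart, with 2.11% of probe sets at least 2 units apart in either direction and an SD of 0.70, against 2.36% for iPF4-2 and iPSCs-w. The part of the low 5' minus 3' values of the PS24 array in that distance was not tested. Among 6765 named genes, 82 (1.21%) were higher in iPF4-2 and 68 (1.01%) were lower by at least 2 units. The gene just inside this threshold differed by 2.01 and the gene just outside it by 2.00.

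**Figure D1:**
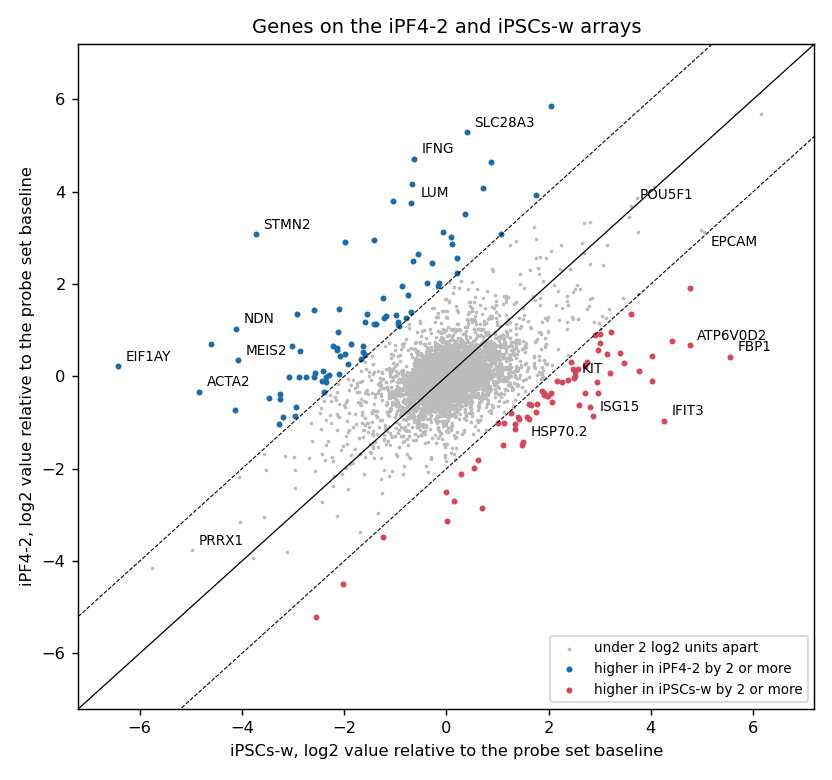
The log2 value of each of 6765 genes (median of its probe sets, relative to their baselines) in iPSCs-w on the horizontal axis and in iPF4-2 on the vertical axis, 1 array per line; the solid line marks equal values and the dashed lines differences of 2 log2 units. Coloured points are the 82 genes at least 2 units higher in iPF4-2 and the 68 at least 2 units lower, with EIF1AY and STMN2 furthest out on the first side and IFIT3 and FBP1 on the second.

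Of the genes that define iPS cells, POU5F1 was far above the fibroblast level in both lines, and ZFP42 was not. POU5F1, which encodes OCT4, was 3.68 in iPF4-2 and 3.61 in iPSCs-w, against -0.50 in PEF, 1.09 in PAFSC, 0.07 in PS24 and -0.07 in 30AC5. The lines thus lay 4.19 and 4.12 units above the fibroblasts and 0.07 apart from each other. KRT18, a keratin of simple epithelia, was 3.34 in iPF4-2, 2.81 in iPSCs-w and -0.68 in PEF. The reprogramming factor KLF4 was 2.12 in PEF but -0.79 in iPF4-2 and -0.80 in iPSCs-w. MYC, another reprogramming factor and a driver of growth, was 0.29 in iPF4-2, -1.04 in iPSCs-w and 5.55 in PEF. Neither KLF4 nor MYC was above the fibroblast level in either line. ZFP42, which encodes the pluripotency marker REX1, was 0.47 and 0.80 in the lines and -0.12 in PEF, within 1 unit of the fibroblasts in both.

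The other pluripotency genes did not point one way. Of 20 core pluripotency genes looked for, 2 were measured by name, and of 14 genes linked to the naive state, 5 were. DNMT3B, the de novo DNA methyltransferase of early embryos, was higher in iPSCs-w (2.88) than in iPF4-2 (1.18), a difference of -1.70 on 1 probe set; it was -0.75 in PEF and between -0.12 and 0.64 on the remaining arrays. NR5A2, an orphan nuclear receptor that can stand in for OCT4 in reprogramming, was higher in iPF4-2 (2.33) than in iPSCs-w (0.89), a difference of 1.34 over 5 probe sets. DPPA5, an RNA-binding protein of early embryonic cells, was 2.31 in iPF4-2 and 1.64 in iPSCs-w, both more than 2 units above PEF at -0.80. NR5A2 and DPPA5 were picked out after their values were seen, as were all list members named below beyond the naming rule. No gene of these lists was 2 units apart, where 2.22% of all genes were.

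Some epithelial adhesion genes were higher in iPSCs-w, while the keratins were close. Of 18 measured adhesion genes, 6 were at least 1 unit lower in iPF4-2 and none was 1 unit higher, where 5.19% and 4.05% of all genes were. Their median difference was -0.62, against -0.04 over all genes. EPCAM, the epithelial cell adhesion molecule that iPS colonies share with epithelia, was 4.98 in iPSCs-w and 3.18 in iPF4-2, with -1.67 in PEF, 0.16 in PAFSC, -0.16 in PS24 and -1.03 in 30AC5. Both lines were thus far above the other arrays, and iPSCs-w lay 1.81 units above iPF4-2. CDH1, which encodes E-cadherin, was 2.75 in iPSCs-w and 1.46 in iPF4-2, against -1.34 in PEF; its 2 probe sets differed by -1.62 and -0.96.

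ESRP1, the splicing regulator that keeps epithelial isoforms, was the adhesion-list gene furthest apart. It was 3.61 in iPSCs-w, 1.35 in iPF4-2, 0.97 in 30AC5, -1.09 in PS24, -1.03 in PEF and -2.54 in PAFSC, so that iPSCs-w was above every other array. The tight junction protein OCLN differed by -1.90, the membrane protease ST14 by -1.33 and the desmosome protein DSP by -1.18. The claudins CLDN3, CLDN4, CLDN6 and CLDN7 differed by 0.08, 0.41, 0.54 and -0.72, and the 4 measured keratins by -0.07 to 0.57. A shorter list of 10 epithelial cell markers, keratins included, had 6 members higher in iPF4-2, 3 at least 1 unit lower and a median difference of 0.17, and its median level was 1.40 in both lines. KRT8, the partner of KRT18, had 1 probe set at 1.40 and another at -0.26, so that its direction is not settled.

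Matrix genes went the other way. Of 29 measured genes of the extracellular matrix, 24 were higher in iPF4-2, 11 by at least 1 unit and 4 by at least 2, and 3 were at least 1 unit lower. Over all genes 3138 of 6765 were higher, 4.05% by at least 1 unit and 1.21% by at least 2, and 5.19% were at least 1 unit lower. The median difference of the matrix genes was 0.72, against -0.04 over all genes. LUM, the collagen-binding proteoglycan lumican, was 7.34 in PEF, 3.77 in iPF4-2, 1.59 in PAFSC, -0.02 in 30AC5, -0.44 in PS24 and -0.69 in iPSCs-w. This put iPF4-2 4.45 units above iPSCs-w, the lowest array, and 3.58 units below the fibroblasts, on 1 probe set. TNC, the matrix glycoprotein tenascin C, showed the same order of PEF (5.80), iPF4-2 (1.36) and iPSCs-w (-1.55), with -0.33 in PS24 and 0.12 in 30AC5.

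FBN1, which encodes the microfibril protein fibrillin, had agreeing probe sets. It was -0.02 in iPF4-2 and -2.74 in iPSCs-w, against 2.74 in PEF, 3.76 in PAFSC, 1.14 in PS24 and -1.01 in 30AC5, and its probe sets differed by 2.03 and 3.40. Here iPF4-2 lay inside the range of the other iPS lines, and iPSCs-w was the lowest array. FN1, fibronectin, differed by 2.12 in the median, but its 4 probe sets ranged from 0.45 to 6.39. DCN, the proteoglycan decorin, differed by 3.40 on 1 probe set and by -0.04 on the other, and only the first of these read above 1 in PEF (4.45 against -0.17).

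The fibrillar collagens themselves were close. COL1A2, a chain of type I collagen, was 0.10 in iPF4-2, -0.39 in iPSCs-w and 2.12 in PEF, and COL3A1, the chain of type III collagen, was 0.18, 0.26 and -0.003. The 1 probe set of COL3A1 thus read no higher in PEF than in the lines, and its small difference says little about them. SPARC and VCAN, a collagen-binding glycoprotein and a large proteoglycan, differed by 1.80 and 1.84. The matrix genes at least 1 unit higher in iPSCs-w were COL6A3 (-1.45), NID2 (-1.50) and SPARCL1 (-1.34), and LAMC1 (-0.23) and COL3A1 leaned the same way. COL1A1 was not analysed here.

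The fibroblast level showed where the lines stood. In 23 of the 29 matrix genes the order was PEF highest, iPF4-2 next and iPSCs-w lowest; over all genes this order was met in 1089 of 6765. Both lines were below PEF in most matrix genes, 26 of 29 in iPF4-2 and 27 of 29 in iPSCs-w, where 2679 and 2798 of 6765 genes overall were. The part of the high PEF level of matrix genes in their share in the order above was not tested. LUM was the 1 matrix gene in which iPF4-2 was more than 3 units above iPSCs-w, and it was 3.58 units short of the fibroblast value there.

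**Figure D2:**
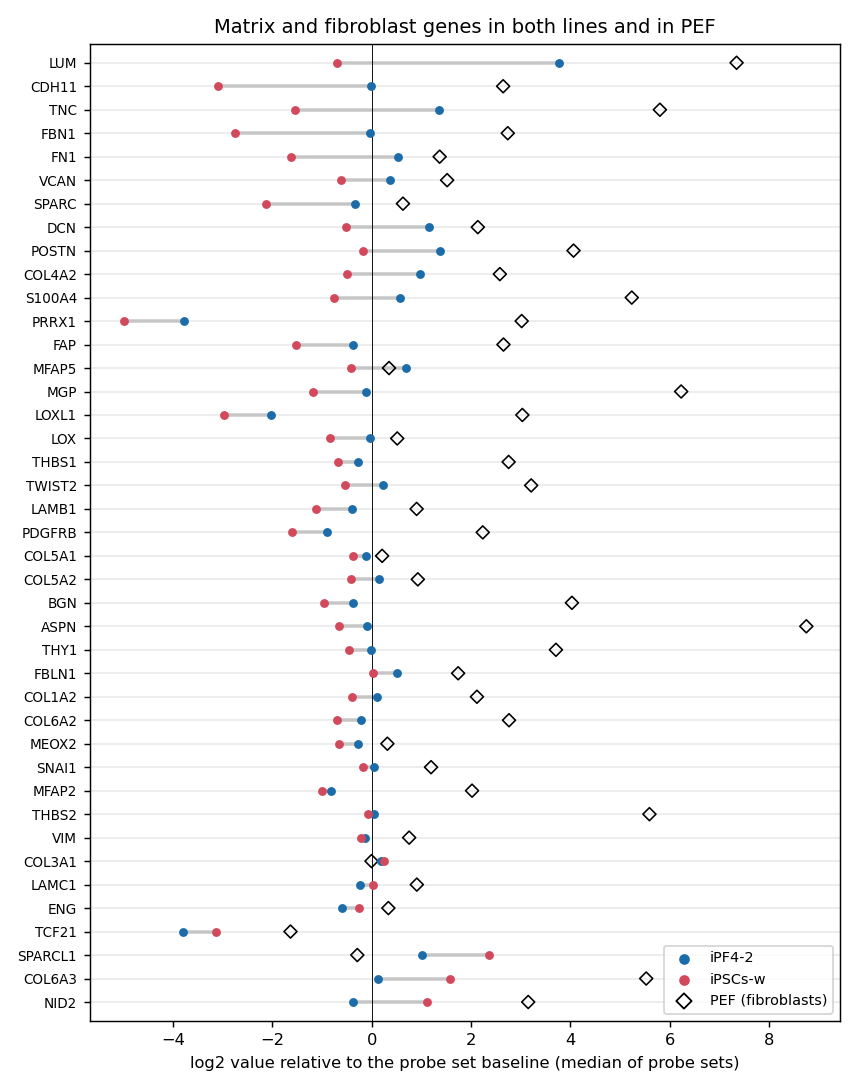
The log2 value (horizontal axis, median of the gene's probe sets, relative to their baselines) of the measured genes of the extracellular matrix and fibroblast identity lists in PEF (open diamonds), iPF4-2 and iPSCs-w (filled points), 1 array each, ordered by the difference between the lines. Among the matrix genes iPF4-2 lies between iPSCs-w and a higher PEF in 23 of 29 genes, and in LUM it reaches 3.77 against -0.69 in iPSCs-w and 7.34 in PEF.

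Some genes of fibroblast identity and contraction were also higher in iPF4-2. Of 12 measured genes of fibroblast and mesenchymal identity, 4 were at least 1 unit higher in iPF4-2 and none was 1 unit lower, where 4.05% and 5.19% of all genes were, with a median of 0.63. The mesenchymal homeobox factor PRRX1 differed by 1.22 and the calcium-binding protein S100A4 by 1.34. CDH11, the cadherin of mesenchymal cells, differed by 3.07, with 3 probe sets from 1.12 to 7.11. THY1, a surface protein of fibroblasts, was 3.71 in PEF, -0.01 in iPF4-2 and -0.46 in iPSCs-w. VIM, the intermediate filament vimentin, was -0.13 and -0.21 in the lines and 0.75 in PEF. Among 14 contractile genes 4 were at least 1 unit higher in iPF4-2 and none was 1 unit lower, beside the same 4.05% and 5.19%. Their median was 0.18, and 0.02 after quantile normalization over 2 or over 6 arrays.

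ACTA2, smooth muscle actin, was the contractile gene furthest apart. It was 2.72 in PEF, 1.74 in PAFSC, -0.33 in iPF4-2, -2.77 in 30AC5, -4.83 in iPSCs-w and -5.11 in PS24. The low values in iPSCs-w and PS24 were alike, and iPF4-2 was the iPS line nearest to the fibroblasts. CALD1, the actin-binding protein caldesmon, differed by 1.91 with probe sets at 1.85 and 1.96, and TAGLN, transgelin, by 1.88. The measured members of the TPM1, TPM2, MYL9 and VCL genes of the same apparatus differed by -0.18 to 0.26.

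Of 10 measured fibroblast markers in the cell type list, 6 were at least 1 unit higher in iPF4-2 and none was lower by that much, where 4.05% and 5.19% of all genes were. All of these markers are also members of the matrix or fibroblast identity lists, so this count repeats genes counted above. Their median level was 2.88 in PEF, 0.14 in iPF4-2 and -0.60 in iPSCs-w. Fewer fibroblast-like cells in a culture and less of these RNAs per cell cannot be told apart in bulk RNA. The iPS lines grew on mouse fibroblasts, and the part of feeder RNA in these values was not tested. The 5 measured haematopoietic markers and the 7 endothelial markers had no gene 1 unit apart. Over all genes 4.05% were higher and 5.19% lower by that much, so such short lists can easily hold none.

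Proteins that cut or inhibit the matrix followed in part. ADAMTS1, a secreted protease of proteoglycans, was 0.66 in iPF4-2 and -2.22 in iPSCs-w, and its probe sets differed by 2.88 and 2.89. PEF, PS24 and 30AC5 lay between 0.11 and 0.50, above iPSCs-w, while the probe sets disagreed in PAFSC (-2.17 and 1.95). PLAT, tissue plasminogen activator, differed by 2.77. Of 15 measured matrix proteases and inhibitors 5 were at least 1 unit higher in iPF4-2 and 1 at least 1 unit lower, where 4.05% and 5.19% of all genes were. SERPINH1, the collagen chaperone HSP47, which is in the heat shock list and not in this one, differed by 2.32. PLAU, the urokinase that acts beside PLAT, was 1.15 units lower in iPF4-2.

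**Figure D3:**
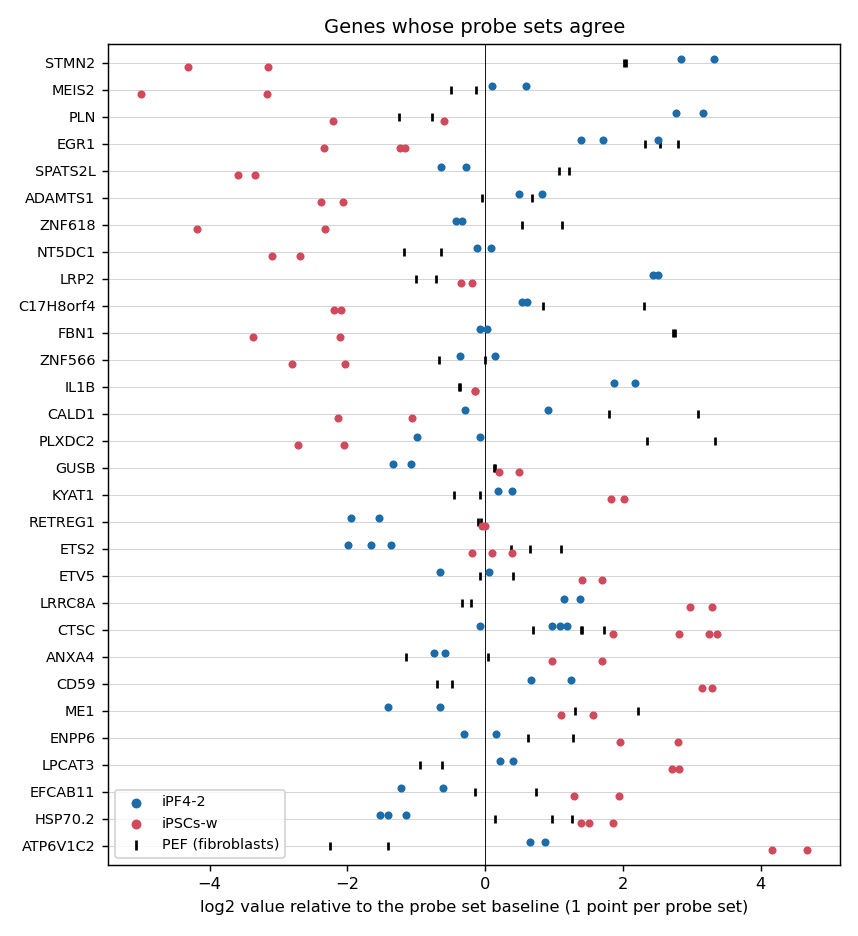
The log2 value of each probe set (horizontal axis, relative to its baseline) of the 30 named genes whose probe sets agree, in iPF4-2 and iPSCs-w (points) and PEF (ticks). The medians of STMN2 are -3.73 in iPSCs-w and 3.08 in iPF4-2, and those of ATP6V1C2 4.41 and 0.76.

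Agreement between probe sets was far from general. Of 2261 genes with several probe sets, 42 (1.86%) had all of them at least 1 unit higher in iPF4-2 and 44 (1.95%) all at least 1 unit lower. Of the 95 such genes with some probe set 2 units apart, 39 (41.1%) agreed and 19 had a probe set on the other side of 0. A difference seen on 1 probe set alone is thus open to the choice of probe set.

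STMN2, a microtubule-destabilising protein of growing neurons, was the gene with agreeing probe sets that was furthest apart. It was 3.08 in iPF4-2, 2.55 in PS24, 2.03 in PEF, -1.05 in 30AC5, -3.20 in PAFSC and -3.73 in iPSCs-w, and its probe sets differed by 6.46 and 7.15. The high arrays were thus iPF4-2, PS24 and the fibroblasts. Of 10 measured ectoderm and neural genes, 5 were at least 1 unit higher in iPF4-2 and 1 was lower by that much, where 4.05% and 5.19% of all genes were. The median was 0.78, and 0.36 after quantile normalization over the 2 arrays. They included the neural adhesion molecule NCAM1 (1.99), the microtubule protein MAP2 (1.63) and the growth cone protein GAP43 (1.30). GFAP, NEFL, NEUROD1 and SOX9 differed by 0.13 to 0.32, and NNAT, an imprinted membrane protein of neurons, was 1.27 units lower in iPF4-2.

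PLN, phospholamban, the inhibitor of the calcium pump of muscle, was among the agreeing genes in which iPF4-2 stood apart from the other arrays. It was 2.96 in iPF4-2, 1.39 in PAFSC, 0.91 in PS24, -1.01 in PEF, -1.18 in 30AC5 and -1.41 in iPSCs-w. LRP2, the endocytic receptor megalin, was likewise 2.47 in iPF4-2 and between -0.86 and 1.32 on the other arrays, with -0.28 in iPSCs-w. MEIS2, a homeobox partner of HOX proteins, was instead low in iPSCs-w alone, at -4.08 against -0.31 to 0.51 on the other arrays; its probe sets differed by 3.27 and 5.59. EGR1, an immediate early transcription factor that serum switches on, was 1.70 in iPF4-2 and -1.24 in iPSCs-w, with 2.54 in PEF and 2.71 in PAFSC. Its 3 probe sets differed by 2.63, 3.67 and 4.04. The remaining agreeing genes named on this side were SPATS2L, C17H8orf4, NT5DC1, ZNF618, ZNF566, IL1B and PLXDC2, with differences from 1.85 to 3.00.

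Counted over all 82 genes that were at least 2 units higher in iPF4-2, it was now one line and now the other that stood apart from the fibroblasts. iPF4-2 was within 1 unit of PEF in 30, iPSCs-w was in 25, and neither was in 27; at 0.5 units the counts were 11 and 16. Of these 27, both lines were below the fibroblasts in 15 and above them in 6, and in 6 they lay on opposite sides. iPSCs-w was at least 1 unit below PEF, PS24, 30AC5 and iPF4-2 in 34 of the 82, and iPF4-2 at least 1 unit above all of its counterparts in 26. The 82 genes were picked for a difference of at least 2 units between the lines, so these conditions were partly met by the choice. They were not counted over all genes, and the counts only describe the 82.

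Genes read by 1 probe set gave the largest differences after STMN2. IFNG, interferon gamma, which pig trophoblast secretes around implantation, was 4.71 in iPF4-2, -0.63 in iPSCs-w, 2.13 in PAFSC and between -0.19 and 0.15 in PEF, PS24 and 30AC5. SLC28A3, a nucleoside transporter, was 5.29 in iPF4-2 and 0.40 in iPSCs-w, with 1.55 in PAFSC and between -0.13 and 0.16 elsewhere. TOX3, a transcription regulator of the HMG-box family, was 4.17 in iPF4-2 and -0.67 in iPSCs-w, and no other array was above 0.91. PLPPR5 and PPP1R1A, a neurite outgrowth protein and a phosphatase inhibitor, were 3.81 and 2.91 in iPF4-2 and differed by 4.85 and 4.88. In these 5 genes iPF4-2 was above every other array. IL1B, the cytokine that pig embryos also make, differed by 2.17 and its 2 probe sets agreed (2.03 and 2.31). HAND1, a transcription factor of trophoblast and mesoderm, differed by 1.29. Of 14 measured trophoblast genes 2, IFNG and IL1B, were at least 2 units higher in iPF4-2, where 1.21% of all genes were. The median of that list was 0.26.

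In other single probe set genes iPSCs-w was the array that stood apart. NDN, the imprinted growth suppressor necdin, was -4.11 in iPSCs-w, 1.03 in iPF4-2, 1.55 in PEF, -1.71 in PAFSC, 0.37 in PS24 and 0.92 in 30AC5. The other 13 measured imprinted genes differed by -1.27 to 1.44. PALMD, a paralemmin family protein, was -4.60 in iPSCs-w and 0.69 in iPF4-2. LEF1, the transcription factor that acts with beta-catenin in Wnt signalling, was -2.92 in iPSCs-w and 1.35 in iPF4-2, and between -0.56 and 1.69 on the other arrays. The remaining 13 measured Wnt genes differed by -0.84 to 1.05. LEF1 was thus the 1 gene of that list 2 units apart, where 2.22% of all genes were.

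EIF1AY, a translation factor gene known in mammals from the Y chromosome, split the arrays into high and low ones. It was 0.22 in iPF4-2 and -0.06 in PS24, and -6.42 in 30AC5, -6.43 in iPSCs-w, -6.27 in PEF and -3.11 in PAFSC. The labels give no sex for any sample, and the gene has 1 probe set here. SRY, the Y-linked testis-determining gene, differed by -0.10 between the lines, and the X-linked KDM6A and ZFX by -0.14 and 0.29.

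Genes read by 1 probe set also gave the largest differences on the side of iPSCs-w. FBP1, the gluconeogenic fructose bisphosphatase, was 5.56 in iPSCs-w, 0.42 in iPF4-2, -0.50 in PEF, 2.03 in PAFSC, 0.73 in PS24 and 1.55 in 30AC5. ACP5, the tartrate-resistant acid phosphatase of osteoclasts and macrophages, was 4.02 in iPSCs-w and -0.10 in iPF4-2, and CD86, a co-stimulatory ligand of antigen-presenting cells, was 3.77 and 0.11. For ACP5 and CD86 the other arrays lay between -0.43 and 2.65. The 15 measured haematopoietic and macrophage genes, however, differed by -0.36 to 0.62. None was 1 unit apart, where 4.05% of all genes were higher and 5.19% lower by that much. Of the 15 genes 12 were higher in iPF4-2, where 3138 of 6765 genes overall were. Among the haematopoietic cell markers AIF1, CD14, CD74, PTPRC and SPI1 the median level was 0.18 in iPF4-2 and -0.24 in iPSCs-w.

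Subunits of the V-ATPase, the proton pump that acidifies lysosomes and vesicles, were among the same genes. ATP6V1C2, an epithelial form of the C subunit, was 4.41 in iPSCs-w, 0.76 in iPF4-2, 0.10 in 30AC5, 0.05 in PAFSC, -1.26 in PS24 and -1.83 in PEF; its probe sets differed by -3.51 and -3.80. ATP6V0D2, a d subunit found in osteoclasts and kidney, was 4.76 in iPSCs-w and 0.67 in iPF4-2. The family was examined after these values were seen. Of its 15 measured members 12 differed by less than 1 unit, 1 was at least 1 unit higher and 2 at least 1 unit lower. Over all genes 4.05% were higher and 5.19% lower by that much. Both lower members were past 2 units, where 1.01% of all genes were. Other genes of membranes and lysosomes had agreeing probe sets. CTSC, the lysosomal protease cathepsin C, differed by -1.99 with 4 probe sets from -2.29 to -1.84. CD59, which protects cells from complement, was 3.21 in iPSCs-w, 0.95 in iPF4-2 and between -0.63 and 0.51 elsewhere.

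Some interferon-stimulated genes were also higher in iPSCs-w, while most of the list lay closer together. IFIT3, an antiviral RNA-binding protein, was 4.26 in iPSCs-w and -0.96 in iPF4-2, with -0.26 in 30AC5, 0.26 in PS24, 1.06 in PAFSC and 2.64 in PEF. ISG15, a ubiquitin-like modifier, was 2.86 in iPSCs-w and -0.86 in iPF4-2, with -0.64 in 30AC5, -0.16 in PS24, 0.30 in PAFSC and 0.60 in PEF. In both genes iPSCs-w was the highest array and iPF4-2 the lowest. IFIT1 differed by -2.70, with 2 probe sets at -2.70 and -3.29 and the other at 0.23. Of 20 measured interferon response genes 3 were at least 2 units and 5 at least 1 unit lower in iPF4-2, none was 1 unit higher, where 1.01%, 5.19% and 4.05% of all genes were, and the median was -0.33. MX1, an antiviral GTPase, differed by -1.82, while MX2, OAS1, IRF7, USP18 and XAF1 differed by -0.15 to 0.43. CCL2, the monocyte chemokine, was 6.56 in PEF, 1.12 in iPSCs-w and -1.01 in iPF4-2, and PTGS2, the prostaglandin synthase COX-2, went the other way, with 1.26 in iPF4-2, -1.22 in iPSCs-w and 3.72 in PEF.

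Single genes of stress and growth factor pathways were also higher in iPSCs-w. HSP70.2, a heat shock protein gene with near-identical copies that probe sets may not separate, was 1.50 in iPSCs-w, -1.42 in iPF4-2, 0.97 in PEF, -3.30 in PAFSC, 1.45 in PS24 and 0.58 in 30AC5. Its 3 probe sets differed by -2.80, -3.01 and -3.03, and iPF4-2 was below the other iPS lines and PEF. The 24 measured genes of the heat shock and unfolded protein list, which does not hold HSP70.2, had a median of -0.10. None was at least 1 unit lower in iPF4-2 and 2 were at least 1 unit higher, where 5.19% and 4.05% of all genes were. The furthest of these was SERPINH1 (2.32). HMOX1, the haem oxygenase switched on by oxidative stress, was 2.47 in iPSCs-w, 0.15 in iPF4-2 and 3.33 in PEF. Of 23 measured oxidative stress and metallothionein genes 6 were at least 1 unit lower in iPF4-2 and none was higher by that much, beside 5.19% and 4.05% of all genes. Their median of -0.37 came to between -0.18 and -0.08 under quantile normalization, with the probe set of the highest mean, or over genes with several probe sets only. ME1, a malic enzyme that makes NADPH, differed by -2.37 with agreeing probe sets (-2.23 and -2.51). TGFB2, a growth factor of the TGF-beta family, was 2.22 in PEF, 2.07 in iPSCs-w and -0.56 in iPF4-2, with PS24, 30AC5 and PAFSC between -0.44 and 0.00. All of its 4 probe sets were at least 1 unit lower in iPF4-2, the furthest by -2.93, and iPSCs-w was at the fibroblast level. The BMP and TGF-beta list as a whole had a median of -0.03. Of its 14 measured genes 2 were at least 1 unit higher and 2 at least 1 unit lower, where 4.05% and 5.19% of all genes were.

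Genes that FGF and ERK signalling can induce went both ways. EGR1, one of them, was higher in iPF4-2, as given above. ETV5, a transcription factor induced by FGF, was 1.55 in iPSCs-w, -0.31 in iPF4-2, 2.05 in PS24, 2.79 in 30AC5 and 0.17 in PEF, with probe sets at -1.64 and -2.06. ETS2, also of the ETS family, differed by -1.76 and its 3 probe sets by -1.75 to -1.80. DUSP6, a phosphatase that ERK induces, differed by -1.13. Over the whole list of FGF, activin and nodal genes the picture was mixed, with a median of -0.21. Of 18 measured genes 4 were at least 1 unit lower and 2 at least 1 unit higher, where 5.19% and 4.05% of all genes were. FGF13, an intracellular relative of the FGFs, was -5.22 in iPF4-2 and -2.54 in iPSCs-w, and FGFR1, an FGF receptor, was 1.75 units higher in iPF4-2. Of 9 measured LIF, JAK and STAT genes 8 were lower in iPF4-2, 3 of them by at least 1 unit (IL6 at -1.51, STAT3 at -1.50 and JAK1 at -1.04), with a median of -0.75; over all genes 3626 of 6765 were lower and 5.19% by at least 1 unit. KIT, the stem cell factor receptor, was 2.50 in iPSCs-w and -0.04 in iPF4-2.

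HOX genes mark position along the body axis. HOXA9 was 2.99 in PS24, 2.71 in 30AC5, -0.29 in PEF, -0.64 in PAFSC, -2.02 in iPSCs-w and -4.49 in iPF4-2, on 1 probe set. All 5 measured HOX genes were lower in iPF4-2 than in iPSCs-w, by -2.47 to -0.06, where 3626 of 6765 genes overall were lower.

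For the 68 genes that were at least 2 units lower in iPF4-2, the line at the fibroblast level was more often iPF4-2, but this order depended on the normalization. iPF4-2 was within 1 unit of PEF in 30 of them, iPSCs-w in 10, and neither in 28; in 12 of the 28 both lines were above PEF, in 8 both were below, and in 8 they lay on opposite sides. After quantile normalization over 6 arrays iPF4-2 was near PEF in 42 lower genes and iPSCs-w in 51. In the values as deposited, iPSCs-w was at least 1 unit above PEF, PS24, 30AC5 and iPF4-2 in 39 of the 68, while iPF4-2 was at least 1 unit below its counterparts in 16. Here too the choice of the 68 genes partly met these conditions, which were not counted over all genes. Further genes with agreeing probe sets on this side were LPCAT3 and ENPP6, which act on phospholipids, and the volume-regulated channel subunit LRRC8A, with differences of -2.45, -2.45 and -1.87. The annexin ANXA4 differed by -2.28 and -1.72 on its probe sets. EFCAB11, KYAT1, RETREG1 and GUSB differed by -2.54 to -1.55.

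Set against the fibroblasts, iPSCs-w was further away. It had 754 probe sets (3.15%) at least 2 units above PEF and 1229 (5.13%) at least 2 units below, where iPF4-2 had 543 (2.27%) and 1064 (4.45%). The SD of the difference from PEF was 1.22 for iPSCs-w and 1.09 for iPF4-2. These comparisons share the 1 PEF array, and the iPSCs-w array also had the wider values of the pair.

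**Figure D4:**
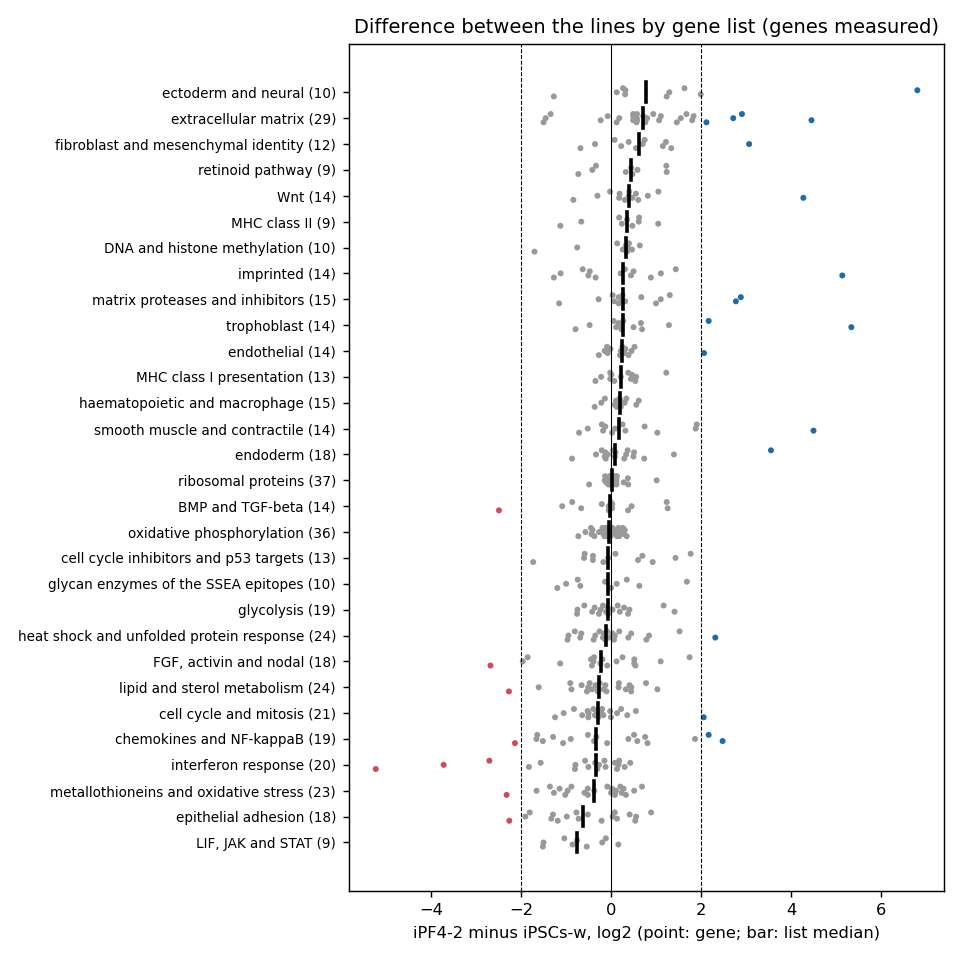
The difference iPF4-2 minus iPSCs-w (horizontal axis, log2 units) of each measured gene (points) in the lists with 9 or more measured genes, with the list's median (bars) and dashed lines at differences of 2 units; coloured points are genes past them. The medians lie at 0.72 for the extracellular matrix and -0.62 for epithelial adhesion, and the oxidative phosphorylation and ribosomal lists lie around 0.

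Genes of oxidative phosphorylation and ribosomal proteins lay close together in the lines, which did not hold for every list given here. In 16 of the 38 lists no member was 2 units apart, but 2.22% of all genes were, so a short list can easily hold none. Of the 535 measured list genes, 19 were at least 2 units higher in iPF4-2 and 11 at least 2 units lower, where 1.21% and 1.01% of all genes were. The 36 measured genes of oxidative phosphorylation differed by -0.73 to 0.35 with a median of -0.04, and the 37 ribosomal protein genes by -0.49 to 1.01 with a median of 0.03. Of 19 glycolysis genes, 2 were at least 1 unit higher in iPF4-2, where 4.05% of all genes were. Among 21 genes of the cell cycle 16 were lower in iPF4-2, where 3626 of 6765 genes overall were, and the median was -0.28. Of the 5 higher genes 1, cyclin D2 (CCND2), was 2.06 higher. The 10 measured glycan enzymes that build the SSEA epitopes differed by -1.19 to 1.69, with a median of -0.06. In iPF4-2 1 of them was at least 1 unit higher and 1 at least 1 unit lower, where 4.05% and 5.19% of all genes were.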

How the data were processed

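Per the labels' protocols, biotin-labelled cRNA made from total RNA of the 6 samples was put on Affymetrix Pig Genome Arrays. The deposited value table holds log2 values of 24123 probe sets with 0 missing values; of software, background correction, normalization and baseline nothing is stated in the sources used here. The number of arrays, 1 per line, limits the precision.

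The 124 AFFX and 64 RPTR probe sets were left out. Of 23935 kept, the platform annotation gave 1 symbol to 10069, several to 198 (not named) and none to 13668, for 6765 genes, 4504 with 1 probe set. By gene ID 9961 were found in the RefSeq table. Differences were taken with Python 3.11.15, pandas 2.3.3 and numpy 2.4.6 and drawn with matplotlib 3.10.9; the counting was tested on simulated data.

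Named by rule were up to 15 genes per direction with agreeing probe sets, ranked by their smallest difference, up to 8 with 1 probe set, up to 4 per list and direction at 2 log2 units, genes of patterns counted at 5 or fewer, and a fixed set of pluripotency, epithelial and fibroblast genes. The 38 lists held 893 genes, of which 535 were measured. The pair, lists and rule were chosen with earlier results of these data known. Alternatives were other normalizations, thresholds, filters and summaries per gene.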

Additional observations from a re-analysis of the deposited data

Results flagged for a closer look

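In 9 named genes the lines lay on opposite sides of the fibroblast culture, each at least 1 log2 unit from PEF; the difference was not tested, since each line is 1 array. iPF4-2 was above PEF and iPSCs-w below it in 5 of them: STMN2 (difference 6.81), PALMD (5.30), PPP1R1A (4.88), TOX3 (4.84) and LEF1 (4.27). In the other 4 the order was turned, with a difference of -5.23 for IFIT3, -3.72 for ISG15, -2.54 for EFCAB11 and -2.45 for ENPP6. STMN2, EFCAB11 and ENPP6 had probe sets that agreed on the difference between the lines, and the others had 1 probe set. The distance of iPF4-2 from PEF was less settled in these 3 genes, since 1 probe set of each put it under 1 unit. There iPF4-2 and PEF read 2.84 and 2.01 for STMN2, -0.62 and -0.15 for EFCAB11, and -0.31 and 0.63 for ENPP6. In their medians STMN2 and ENPP6 were close to the limit in iPF4-2, 1.05 units above and 1.02 units below PEF. PPP1R1A was close to it in iPSCs-w, 1.03 units below PEF.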

How the results depend on the processing

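No paired analysis was possible because each line is 1 array and leaving one out leaves no comparison. Among named genes and list medians, the sign turned for KLF4 alone, whose difference near 0 became negative under median centring and both quantile normalizations (to -0.13 at most over 6 arrays). The order of paired counts turned for lower genes near PEF over 6 arrays (42 for iPF4-2, 51 for iPSCs-w), higher genes within 0.5 of PEF, probe sets at a threshold of 1, and agreeing genes over 2 arrays (41 higher, 39 lower) or with every probe set 2 apart. Of the summary results, 47 values under an alternative stayed within 1.5 times the count or, for a list median, within 0.49 divided by the square root of its number of genes, and the following moved. Quantile normalization over 6 arrays gave 530 probe sets higher and 502 lower, 67 agreeing genes higher and 96 lower, 24 list members lower by 2 units, 1160 probe sets of iPF4-2 and 1515 of iPSCs-w above PEF, 47 higher genes with iPF4-2 near PEF and 51 lower genes with iPSCs-w near PEF. List medians under it were 0.47 for fibroblast identity, 0.90 for the matrix and -0.67 for interferon, and over the 2 arrays alone 0.29 and 0.55 for the first 2. At a threshold of 1, 1174 probe sets were higher and 1281 lower, and 63 list members higher and 49 lower, against 19 and 11; at 3, 147 and 50 probe sets. With every probe set 2 apart, 11 genes agreed higher and 5 lower; with at least 2 past 1 and none past 1 the other way, 68 lower. With the probe set of the highest mean, the epithelial median was -0.36 and the matrix median 0.57; over genes with several probe sets only, chosen after seeing the data, the epithelial median was -0.77 over 7 genes. Within 0.5 of PEF, higher genes numbered 11 for iPF4-2 and 16 for iPSCs-w and lower genes 17 and 6; within 2, iPF4-2 had 46 of each, and iPSCs-w 27 of the lower. Of 81 named genes, 5 past 2 fell under it with 2 arrays (CCND2 1.93, EDN1 1.70, FN1 1.93, SERPINH1 1.74, ZNF566 1.95) and 2 with 6 arrays (EDN1 1.94, SERPINH1 1.67). The cause was not tested.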

Other observations

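Some genes outside the groups described above were at least 2 units apart and are given as values. NPM2, the nucleoplasmin of oocytes, was 4.02 in iPSCs-w and 0.44 in iPF4-2, with 2.10 in PAFSC and -0.49 to -0.06 in PEF, PS24 and 30AC5. ACADL, a mitochondrial enzyme of fatty acid oxidation, was 1.65 in iPSCs-w, above every other array, and -0.62 in iPF4-2. APOA1, the apolipoprotein of HDL and a gene of liver and yolk sac endoderm, was 1.45 in iPF4-2 and -2.11 in iPSCs-w, with 1.39 in PEF and -2.13 in PS24; no other measured endoderm gene was 2 units apart. EDN1, the vasoconstrictor endothelin, was -0.33 in iPF4-2 and -2.40 in iPSCs-w. LOC100152209, an uncharacterised gene by its symbol, was -2.85 in iPF4-2, 0.69 in iPSCs-w and -3.05 in PEF.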
